A study of Mus musculus with 8 samples.

Results

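The Fc receptors described here are the products of 7 mouse genes, Fcgr1, Fcgr2b, Fcgr3, Fcgr4, Fcer1g, Fcer1a and Fcgrt. Their members were taken from the array by gene symbol, which gave 9 probes among the 25697 probes of the table and 7 of its 18138 gene symbols. Each gene had 1 probe except Fcgr2b, which had 3. All 9 probes passed the detection filter, as did 13868 probes in total. RNA came from bone marrow-derived macrophages of WT mice and of iNOS-deficient (iNOS-/-) mice, all female, 8 weeks old and labelled C57bl/6J. The marrow was cultured for 7 days with GM-CSF at 10 ng/ml, a growth factor that all groups received. Cells were then left unstimulated (CON) or were given LPS at 200 ng/ml together with IFN-γ at 10 ng/ml for 6 h, a stimulus that drives M1 polarization. Each of the 4 groups, WT CON, WT M1, iNOS-/- CON and iNOS-/- M1, was measured on 2 bead arrays, 8 arrays in all. The methods describe the iNOS-/- mice as a targeted Nos2 line of the strain B6.129P2, whereas the labels give 1 strain for both genotypes. Nothing in the labels says that the arrays of a group came from separate mice or cultures, so p-values measure the spread between these arrays, which may be technical. GM-CSF cultures of marrow can also hold dendritic cells and granulocytes, and because the RNA was from the bulk culture, fewer cells of a type and less RNA per cell cannot be told apart.

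Fc receptors bind the constant part of antibodies and tie antibody to the myeloid cell. Fcgr1 encodes the high-affinity receptor for IgG, and Fcgr3 and Fcgr4 encode other activating receptors for it. All of these signal through the common γ chain, the product of Fcer1g, whose phosphorylated tail recruits the kinase SYK. Fcgr2b encodes the only inhibitory receptor for IgG, which recruits the phosphatase SHIP1 and sets the threshold for activation. Fcer1a encodes the IgE-binding chain typical of mast cells and basophils, and Fcgrt encodes the neonatal Fc receptor, which pairs with β2-microglobulin and recycles IgG and albumin away from the lysosome. IFN-γ is a classical inducer of the high-affinity receptor on macrophages.

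The 3 Fcgr2b probes read different parts of the transcript and are shown because their values moved in different directions. The file classes them as single (written against the record of transcript variant 2), all (common to the variants) and isoform (written against transcript variant 1), and they are called by these names below. Splice forms of this gene differ in the length of the cytoplasmic tail. The isoform probe lies at chr1:172893513-172893562 and the single probe at chr1:172891167-172891216, both on the minus strand, in a genome build that the file does not name. Both are given here in full, 5′ to 3′.
Fcgr2b isoform: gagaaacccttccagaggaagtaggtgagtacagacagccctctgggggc
Fcgr2b single: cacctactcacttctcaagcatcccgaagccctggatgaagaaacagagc

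The promoters of Fcgr1 and Fcgr4 are shown because the stimulus contained IFN-γ and because these genes responded in opposite directions in either genotype. They are the 150 bases before the start site in RefSeq (GRCm38.p6), at chr3:96293970-96294119 on the minus strand for Fcgr1 and chr1:171018776-171018925 on the plus strand for Fcgr4. Capitals mark matches, on either strand, to the letters of a gamma-activated site (TTCNNNGAA), of an interferon-stimulated response element (GAAA, NN, then GAAA) and of a PU.1 site (GAGGAA, or TTCCTC on the other strand).
Fcgr1: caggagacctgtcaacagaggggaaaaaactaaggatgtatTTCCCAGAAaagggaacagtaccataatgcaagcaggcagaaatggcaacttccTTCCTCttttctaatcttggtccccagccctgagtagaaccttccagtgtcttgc
Fcgr4: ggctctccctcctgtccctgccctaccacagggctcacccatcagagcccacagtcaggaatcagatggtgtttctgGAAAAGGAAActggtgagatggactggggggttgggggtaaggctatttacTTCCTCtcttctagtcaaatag

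The Fcgr1 promoter held 1 match to the gamma-activated site, beginning at base -109 from the start, and the Fcgr4 promoter held 1 match to the response element, beginning at base -73. Among all 32851 promoters in the table, of 300 bases each, 8.3% held the first set of letters and 3.44% the second. The PU.1 letters were present in both promoters, at -55 in Fcgr1 and -22 in Fcgr4, and in 28.3% of all promoters. The same letters occurred at -6 in the promoter of Fcgr3, the neighbour of Fcgr4 on chromosome 1, and at -216 in that of Fcer1a. The promoters of Fcgr2b, Fcer1g and Fcgrt held no PU.1 match. No promoter of Fcgr2b, Fcgr3, Fcer1g, Fcer1a or Fcgrt matched the gamma-activated site or the response element, although Fcgrt moved in the directions of Fcgr1. None of the motifs overlapped another. A match is a description of the letters, not of binding.

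Nos2, the targeted gene, was detected on neither CON array of either genotype. In M1 cells its scaled intensity was 183 and 137 on the WT arrays and 192 and 217 on the arrays labelled iNOS-/-, a log2 difference of 0.37 ± 0.32 (SE, limma, adjusted p = 0.39). Nos2 signal was thus no lower on the iNOS-/- arrays, and where its probe lies relative to the targeted part is not given in the sources used here, so every direction between genotypes below rests on the labels. Scaled intensity is the deposited intensity of a probe multiplied by a factor per array, between 0.839 and 1.35, that brought probes of stable rank to the same brightness. Between 46.0% and 49.3% of probes were detected on an array, and the median absolute log2 difference between the arrays of a group was between 0.16 and 0.19. With 2 arrays a group, an exact permutation test on a single probe could not go below p = 0.333, so tests came from limma fits over all probes tested.

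The called Fc receptor probes did not share a common direction in any comparison. In unstimulated cells, 8 of the 9 probes differed between iNOS-/- and WT (adjusted p under 0.05), against 32.1% of all probes tested. Of these, 3 were higher in iNOS-/- cells (all probes, 16.1%) and 5 were lower (all probes, 16.1%). On stimulation of WT cells 6 probes were called (all probes, 35.1%), 3 higher (20.1%) and 3 lower (14.9%). On stimulation of iNOS-/- cells 5 probes were called, a share near the 49.9% of all probes, 2 higher (26.4%) and 3 lower (23.6%). Between the M1 groups 6 probes were called (all probes, 48.5%), 2 higher in iNOS-/- cells (24.5%) and 4 lower (23.9%). The response to stimulation itself differed between genotypes for 5 probes (all probes, 42.1%), more positive in iNOS-/- cells for 2 (21%) and more negative for 3 (21.1%). All members but Fcer1a were detected on all 8 arrays, and shares were larger in a fit to the 9687 such probes. There 47.5% of probes were called between the CON groups (8 members) and 52.3% in WT stimulation (7 members). The shares were 65.2% in iNOS-/- stimulation (5 members), 64.7% between the M1 groups (7 members) and 59.8% for the difference in response (5 members). The median absolute log2 difference of the 9 probes was 0.69 between the CON groups, where all tested probes had 0.46, and 0.99 between the M1 groups, where all tested probes had 0.66. In WT stimulation it was 0.51 against 0.49 over all tested probes, and in iNOS-/- stimulation 0.53 against 0.70. Over the whole array, the share of called probes that were higher depended on the scaling. It was 57.5% in WT stimulation with the scaling used here, 44.4% after neqc and 47.4% after quantile normalization, and in iNOS-/- stimulation it was 52.8% and, after quantile normalization, 41.9%.

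**Figure D1:**
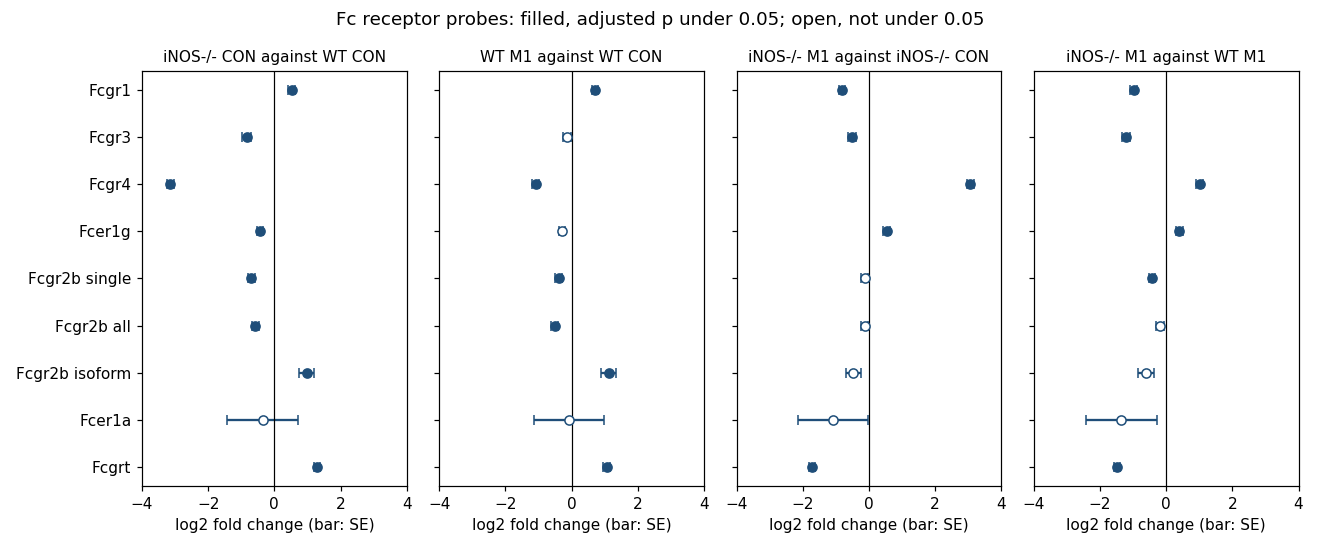
Log2 fold changes of the 9 Fc receptor probes in 4 comparisons, with bars for the SE of the limma fit over 8 arrays; filled points had an adjusted p under 0.05 over 13868 probes. Fcgr4 lies at -3.14 between the CON groups and at 3.07 in iNOS-/- stimulation, while Fcgr1 and Fcgrt lie on the opposite side of 0 in both.

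Fcgr4 made the largest move of any member. Its scaled intensity was 1593 and 1691 on the WT CON arrays and 757 and 782 on the WT M1 arrays. It was 173 and 199.9 on the iNOS-/- CON arrays and 1503 and 1613 on the iNOS-/- M1 arrays. The iNOS-/- CON arrays were the lowest, WT M1 lay between, and WT CON and iNOS-/- M1 were the highest and overlapped each other. Fcgr4 was 8.82-fold lower in iNOS-/- CON than in WT CON cells (log2 difference -3.14 ± 0.11, SE, adjusted p = 8.25e-05). Stimulation lowered it 2.13-fold in WT cells (log2 -1.09 ± 0.11, adjusted p = 0.00161) and raised it 8.37-fold in iNOS-/- cells (log2 3.07 ± 0.11, adjusted p = 4.04e-05). In the M1 state the order between genotypes was turned, with Fcgr4 2.02-fold higher in iNOS-/- cells (log2 1.02 ± 0.11, adjusted p = 0.0012). The responses of the genotypes differed by 4.16 ± 0.15 on the log2 scale (adjusted p = 0.000159). Each of these calls held in every alternative that was run. The M1 difference was smallest, at 0.62, among them.

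Fcgr1, the high-affinity receptor gene, followed the mirror pattern at a smaller scale. Its scaled intensity was 195 and 175 in WT CON, 294 and 306 in WT M1, 261 and 270.0 in iNOS-/- CON, and 158 and 145 in iNOS-/- M1. WT M1 was the highest group and iNOS-/- M1 the lowest, and no pair of groups overlapped. Stimulation raised Fcgr1 1.63-fold in WT cells (log2 0.70 ± 0.10, SE, adjusted p = 0.00488) and lowered it 1.75-fold in iNOS-/- cells (log2 -0.81 ± 0.10, adjusted p = 0.00157). Of the M1 groups, iNOS-/- was 1.98-fold lower (log2 -0.99 ± 0.10, adjusted p = 0.000968). The difference in response was -1.51 ± 0.14 on the log2 scale (adjusted p = 0.00118). Between the CON groups Fcgr1 was 1.44-fold higher in iNOS-/- cells (log2 0.52 ± 0.10, adjusted p = 0.013). That call was lost without WT CON replicate 2 (log2 0.45, adjusted p = 0.0631), without iNOS-/- CON replicate 1 (0.55, adjusted p = 0.053) and without iNOS-/- CON replicate 2 (0.50, adjusted p = 0.0652).

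Fcgr3, another activating receptor gene, differed mainly by genotype. Its scaled intensity was 2831 and 3030.0 in WT CON and 2780.4 and 2549 in WT M1. It was 1646 and 1628 in iNOS-/- CON and 1036 and 1265 in iNOS-/- M1. All 4 iNOS-/- arrays were below all 4 WT arrays. Fcgr3 was 1.79-fold lower in iNOS-/- than in WT cells in the CON state (log2 -0.84 ± 0.12, SE, adjusted p = 0.00646) and 2.33-fold lower in the M1 state (log2 -1.22 ± 0.12, adjusted p = 0.00114). WT stimulation gave a log2 difference of -0.14 ± 0.12 (adjusted p = 0.44). In iNOS-/- cells Fcgr3 fell by 0.52 ± 0.12 on the log2 scale (adjusted p = 0.0194). The fall was not called without iNOS-/- CON replicate 1 (log2 -0.51, adjusted p = 0.0782), without iNOS-/- CON replicate 2 (-0.52, adjusted p = 0.0715), without iNOS-/- M1 replicate 1 (-0.37, adjusted p = 0.0596) or in a fit to the 4 arrays compared (adjusted p = 0.0672). It grew to -0.995 after neqc and -1.01 after quantile normalization. The difference in response was -0.38 ± 0.18 (adjusted p = 0.143), and it was called after neqc (-0.87, adjusted p = 0.0011), after quantile normalization (-0.88, adjusted p = 0.0119) and with an intensity trend (adjusted p = 0.0279).

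Fcer1g, which encodes the γ chain that Fcgr1, Fcgr3 and Fcgr4 share, was bright on every array and varied little. Its scaled intensity was 14538 and 14455 in WT CON, 11343 and 12345 in WT M1, 10638 and 10845 in iNOS-/- CON, and 14541 and 16619.6 in iNOS-/- M1. As for Fcgr4, iNOS-/- CON was the lowest group and WT M1 the next, over a much narrower range. Fcer1g was 1.35-fold lower in iNOS-/- than in WT cells in the CON state (log2 -0.43 ± 0.10, SE, adjusted p = 0.0272). The log2 differences with any 1 of the 4 CON arrays left out were -0.43 without WT CON replicate 1, -0.44 without WT CON replicate 2, -0.42 without iNOS-/- CON replicate 1 and -0.45 without iNOS-/- CON replicate 2, and none was called (adjusted p between 0.0934 and 0.109). WT stimulation gave -0.29 ± 0.10 (adjusted p = 0.078). In iNOS-/- cells Fcer1g was 1.45-fold higher after stimulation (log2 0.53 ± 0.10, adjusted p = 0.00838), but the sign turned after neqc (-0.03, adjusted p = 0.834) and quantile normalization (-0.03, adjusted p = 0.833). In the M1 state it was 1.31-fold higher in iNOS-/- cells (log2 0.39 ± 0.10, adjusted p = 0.0256), and this sign turned as well after neqc (-0.11, adjusted p = 0.376) and quantile normalization (-0.11, adjusted p = 0.384). The M1 call was also lost without WT M1 replicate 1 (0.33, adjusted p = 0.105), without WT M1 replicate 2 (0.45, adjusted p = 0.0512), without iNOS-/- M1 replicate 2 (0.30, adjusted p = 0.0894), with the intercept line (0.28, adjusted p = 0.0615) and in a fit to the 4 arrays compared (adjusted p = 0.098). The difference in response was 0.83 ± 0.14 (adjusted p = 0.00822), and 0.27 after neqc (adjusted p = 0.134) and after quantile normalization (adjusted p = 0.165).

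**Figure D2:**
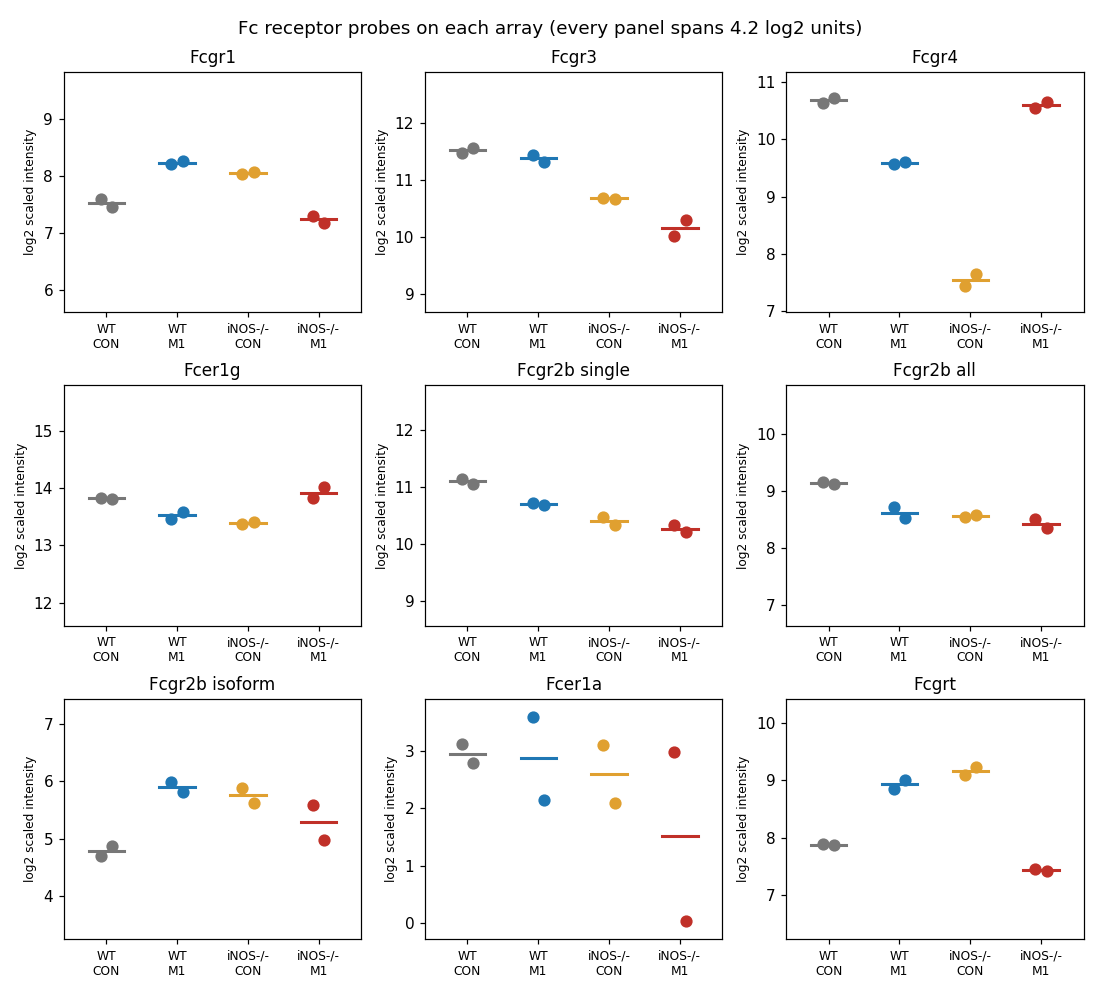
Log2 of the scaled intensity of the 9 Fc receptor probes on each of the 8 arrays, by group; points are arrays and lines are group means, and every panel spans the same number of log2 units. Fcgr4 drops in iNOS-/- CON and is high again in iNOS-/- M1, Fcgr1 and Fcgrt show the reverse, and the Fcgr2b isoform probe is lowest in WT CON, where the other Fcgr2b probes are highest.

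The inhibitory receptor gene Fcgr2b gave different answers by probe. The single probe read 2265 and 2136 in WT CON, 1688 and 1652 in WT M1, 1424 and 1299.8 in iNOS-/- CON, and 1295 and 1187 in iNOS-/- M1. The all probe read 567 and 558, 422 and 367, 371 and 383, and 366 and 325 in the same order of groups. Both were highest in WT CON and lowest in iNOS-/- M1. The isoform probe, printed above with its neighbour, was far dimmer, although detected on all 8 arrays. It read 25.9 and 29.2 in WT CON, 63.6 and 56.2 in WT M1, 59.3 and 49.3 in iNOS-/- CON, and 48.2 and 31.5 in iNOS-/- M1. WT CON was thus its lowest group.

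In the CON state the single probe was 1.62-fold lower in iNOS-/- than in WT cells (log2 -0.69 ± 0.10, SE, adjusted p = 0.00516), and the all probe was 1.49-fold lower (log2 -0.58 ± 0.11, adjusted p = 0.0145). The isoform probe was 1.96-fold higher there (log2 0.97 ± 0.23, adjusted p = 0.0283). WT stimulation lowered the single probe 1.32-fold (log2 -0.40 ± 0.10, adjusted p = 0.0279) and the all probe 1.43-fold (log2 -0.51 ± 0.11, adjusted p = 0.0195), and it raised the isoform probe 2.17-fold (log2 1.12 ± 0.23, adjusted p = 0.0174). Stimulation of iNOS-/- cells called none of the 3, with log2 differences of -0.13 for single and all and -0.47 for isoform (unadjusted limma p between 0.0937 and 0.289). After neqc, however, the single probe was called in that comparison (-0.62, adjusted p = 0.000355), as it was after quantile normalization (-0.63, adjusted p = 0.00419). In the M1 state the single probe was 1.35-fold lower in iNOS-/- cells (log2 -0.43 ± 0.10, adjusted p = 0.0159), and the all probe (-0.19 ± 0.11, adjusted p = 0.209) and the isoform probe (-0.62 ± 0.23, adjusted p = 0.0779) were not called.

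Of these Fcgr2b calls, the single probe between the CON groups was called in every alternative. The all probe lost its call between the CON groups without WT CON replicate 1 (log2 -0.57), WT CON replicate 2 (-0.59), iNOS-/- CON replicate 1 (-0.55) or iNOS-/- CON replicate 2 (-0.60), with adjusted p between 0.059 and 0.0713. In WT stimulation the single probe lost its call without WT CON replicate 1 (-0.36), WT CON replicate 2 (-0.44), WT M1 replicate 1 (-0.41) or WT M1 replicate 2 (-0.38), and the all probe without WT CON replicate 1 (-0.50), WT CON replicate 2 (-0.53) or WT M1 replicate 2 (-0.41). Between the M1 groups the single probe lost it without WT M1 replicate 1 (-0.41), WT M1 replicate 2 (-0.45) or iNOS-/- M1 replicate 2 (-0.37) and in a fit to the 4 arrays compared (adjusted p = 0.057), and its value grew to -0.81 after neqc and -0.82 after quantile normalization. The 4-array fit also lost the WT stimulation calls of the single probe (adjusted p = 0.0607) and the all probe (adjusted p = 0.0592). For the isoform probe, the CON call was lost without WT CON replicate 1 (0.89), WT CON replicate 2 (1.06), WT M1 replicate 1 or 2 (both 0.97), iNOS-/- CON replicate 1 (0.84) or iNOS-/- CON replicate 2 (1.11), and without a detection filter (adjusted p = 0.0657). Its call in WT stimulation was lost without WT CON replicate 1 (1.03), WT CON replicate 2 (1.21), WT M1 replicate 1 (1.03) or WT M1 replicate 2 (1.21). After neqc the isoform probe was still called but smaller, at 0.61 between the CON groups and 0.66 in WT stimulation. These values kept the sign of the full fit. Between the CON groups and in WT stimulation, the direction of the isoform probe stayed opposite to that of the other probes. Between the M1 groups the probes shared a sign in the full fit, at -0.62 (isoform), -0.43 (single) and -0.19 (all). They also shared a sign in iNOS-/- stimulation, at -0.47, -0.13 and -0.13 in the same order.

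Whether the isoform probe moved apart from the others was tested with limma's probe-against-gene test over the 6330 probes of the 2625 genes with several tested probes, a test chosen after the values were seen. Between the CON groups the isoform probe differed from the mean of the other Fcgr2b probes by 1.61 on the log2 scale (adjusted p = 0.000328), where 2.8% of all probes so tested were called. In WT stimulation the difference was 1.58 (adjusted p = 0.000356, all probes 7.68%). In iNOS-/- stimulation it was -0.34 (adjusted p = 0.369, all probes 7.17%), and between the M1 groups -0.31 (adjusted p = 0.378, all probes 9.49%). The difference in response was -1.92 (adjusted p = 0.00161, all probes 5.12%). The values between the CON groups and in WT stimulation were lowest after neqc, at 1.11 and 1.07, and remained called. The response term was also called after neqc, at a smaller -0.89 (adjusted p = 0.00542), and after quantile normalization, at -1.28 (adjusted p = 0.0164). A longer splice form of Fcgr2b is typical of B cells. Of 4 B-cell markers on the array, none was detected on both arrays of any group, and their summed scaled intensity was between 0.896 and 10.8 on the 8 arrays. Cd79b was detected on 1 array, and its highest group mean was 2.12 (log2), in iNOS-/- CON. Whether the isoform probe reads that longer form, and the part of B cells in its values, were not tested.

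Because the scale factor of an array cancels in a difference between probes on that array, the members were also set against the Fcgr2b single probe within each array, with changes given relative to WT CON. The Fcgr4 difference moved by -0.70 in WT M1, -2.45 in iNOS-/- CON and 0.75 in iNOS-/- M1 (log2). The Fcgr1 difference moved by 1.10, 1.22 and 0.54 in the same order. For both genes every array of the other 3 groups lay outside the range of the WT CON arrays. The Fcgr3 difference moved by 0.26, -0.15 and -0.53, and the Fcer1g difference by 0.10, 0.26 and 0.93. Fcgr2b all stayed within 0.12 of its WT CON mean in every group mean. The Fcgr2b isoform difference moved by 1.52, 1.67 and 1.33. The activating receptors therefore changed unequally relative to the inhibitory one. Fcgr4 against Fcgr3, chosen after the values were seen, moved by -0.96, -2.30 and 1.28. These differences are given as values, with no test run on them.

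**Figure D3:**
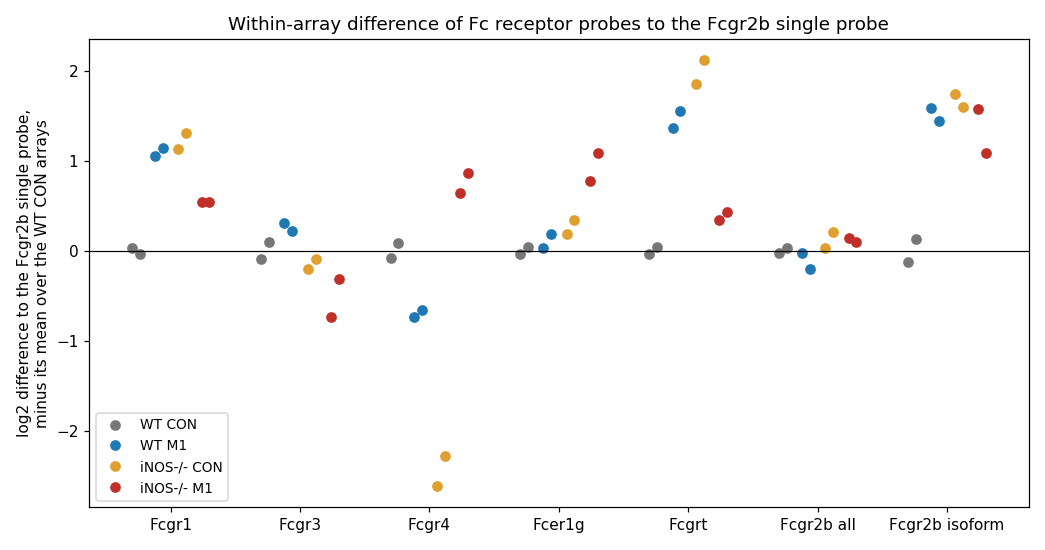
Within-array log2 difference of each Fc receptor probe to the Fcgr2b single probe, minus its mean over the WT CON arrays; each point is 1 of 8 arrays. Fcgr4 ranges from -2.45 (mean of iNOS-/- CON) to 0.75 (mean of iNOS-/- M1), and Fcgr2b all stays near 0.

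Fcer1a was at the edge of detection. Its scaled intensity was 8.76 and 6.91 in WT CON, 12.1 and 4.44 in WT M1, 8.64 and 4.28 in iNOS-/- CON, and 7.96 and 1.02 in iNOS-/- M1. It was detected on 5 of the 8 arrays, including both WT CON arrays. The arrays overlapped in all 4 comparisons between groups, and no log2 difference was called, the largest being -1.36 ± 1.07 (SE, adjusted p = 0.343) between the M1 groups. Without iNOS-/- M1 replicate 1, which leaves 1 array in that group, it was -2.84 (adjusted p = 0.0439). Ms4a2, the β chain of the IgE receptor, was detected on 0 arrays, as were the mast cell proteases Mcpt4, Cma1, Tpsb2 and Tpsab1. Only Cpa3, a carboxypeptidase of mast cells, was detected among the 6 mast cell markers on the array. It was at least 15.8-fold higher in iNOS-/- CON than in WT CON, where neither array detected it (adjusted p = 3.46e-05), and at least 4.08-fold higher in WT M1 than in WT CON (adjusted p = 6.25e-05). The summed scaled intensity of the mast cell markers was 1.20 to 13.0 in WT CON, 25.7 to 31.6 in WT M1, 95.5 to 99.5 in iNOS-/- CON and 128 to 135 in iNOS-/- M1. For the 2 basophil markers it was at most 11.6 on any array. Of these, Mcpt8 was detected on 0 arrays. Prss34, undetected in WT CON, was at least 1.34-fold higher in iNOS-/- CON (adjusted p = 0.01). It was also called higher in WT M1 than in WT CON (adjusted p = 0.0176), although not detected on both WT M1 arrays. The part of mast cells and basophils in the Fc receptor values was not tested.

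Fcgrt, the neonatal Fc receptor gene, moved in the direction opposite to Fcgr4 in all 4 comparisons. Its scaled intensity was 236 and 234 in WT CON, 464 and 516 in WT M1, 548 and 602 in iNOS-/- CON, and 176 and 171 in iNOS-/- M1. The iNOS-/- M1 arrays were the lowest and the iNOS-/- CON arrays the highest, with no overlap between any groups. Fcgrt was 2.45-fold higher in iNOS-/- than in WT cells in the CON state (log2 1.29 ± 0.10, SE, adjusted p = 0.000769) and 2.82-fold lower in the M1 state (log2 -1.50 ± 0.10, adjusted p = 0.000331). Stimulation raised it 2.08-fold in WT cells (log2 1.06 ± 0.10, adjusted p = 0.00133) and lowered it 3.31-fold in iNOS-/- cells (log2 -1.73 ± 0.10, adjusted p = 0.000137). The responses differed by -2.79 ± 0.14 on the log2 scale (adjusted p = 0.000283). All these calls held in every alternative run. B2m, which encodes the partner chain β2-microglobulin, rose where Fcgrt fell, in iNOS-/- stimulation (log2 0.67 ± 0.09, adjusted p = 0.00245). Its log2 difference was -0.22 ± 0.09 between the CON groups (adjusted p = 0.128), 0.28 ± 0.09 in WT stimulation (adjusted p = 0.0693) and 0.18 ± 0.09 between the M1 groups (adjusted p = 0.165), none of them called.

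Other genes, among them adaptors and partner chains that are not limited to the Fc receptors, were read from lists of their known roles. A listed gene with several probes, here and in the marker lists, was read by its brightest probe only. Of the 3 tested adaptors and partner chains, Tyrobp and Hcst, which encode the signalling adaptors DAP12 and DAP10, were lower in iNOS-/- than in WT CON cells, by -0.96 ± 0.15 and -0.70 ± 0.12 on the log2 scale (adjusted p = 0.0079 and 0.0104). WT stimulation lowered both as well, by -1.11 ± 0.15 and -1.04 ± 0.12 (adjusted p = 0.00475 and 0.00283). Fcer1g had lower log2 means in the same comparisons, as given above.

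Of 22 tested genes of activating signalling downstream of the γ chain, 7 were higher and 5 lower between the CON groups, where 32.1% of all probes were called. Among them 8 rose and 3 fell in WT stimulation (all probes called, 35.1%), 8 rose and 6 fell in iNOS-/- stimulation (49.9%), and 6 were higher and 8 lower between the M1 groups (48.5%). The median log2 differences were -0.01, 0.19, 0.11 and -0.03 in that order, close to the -0.02, 0.07, 0.05 and 0.01 over all tested probes. Placing genes that a group did not detect at their bounds left these medians as they were. The kinase gene Fyn rose most in iNOS-/- CON against WT CON, at least 6.36-fold (adjusted p = 2.52e-05), and in WT M1 against WT CON, at least 6.57-fold (adjusted p = 1.87e-05), as neither WT CON array detected it. Lat, an adaptor of lymphoid and mast cells, fell most in WT stimulation, where it was at least 5.01-fold lower (adjusted p = 0.0171). Lat was also lowest of the list between the CON groups, with log2 means of 3.19 in iNOS-/- and 5.15 in WT cells (adjusted p = 0.0401). Lcp2, which encodes the adaptor SLP-76, rose most in iNOS-/- stimulation (2.33 ± 0.14 log2, adjusted p = 0.000177), and Lat2, a membrane adaptor gene related to Lat, fell most (-2.15 ± 0.08, adjusted p = 4.88e-05). Between the M1 groups Lat2 was again the lowest (-1.83 ± 0.08, adjusted p = 0.000173). Syk itself was called in iNOS-/- stimulation (1.29 ± 0.35, adjusted p = 0.0288), and its other differences were not called. Prkcd, encoding protein kinase C delta and the brightest gene of the list, rose in WT stimulation (0.79 ± 0.08, adjusted p = 0.00174) and had a log2 difference of 0.02 ± 0.08 in iNOS-/- cells (adjusted p = 0.854).

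The inhibitory side showed large moves of single genes in M1 cells. All 11 genes of this list were tested: 5 were higher and 2 lower between the CON groups (all probes called, 32.1%), 4 rose and 2 fell in WT stimulation (35.1%), and 4 rose and 3 fell in iNOS-/- stimulation (49.9%). In the M1 state 4 were higher and 3 lower in iNOS-/- cells (48.5%). Their median log2 differences were 0.28, 0.22, 0.07 and 0.00. Inpp5d encodes SHIP1, the phosphatase that the inhibitory receptor recruits. It was 7.58 in WT CON, 7.34 in WT M1, 7.53 in iNOS-/- CON and 4.37 in iNOS-/- M1 (group means of log2 scaled intensity). The log2 SD between its arrays was 0.06, 0.17, 0.28 and 0.87 in the same order, so the iNOS-/- M1 arrays lay far apart. Inpp5d therefore fell in iNOS-/- stimulation (-3.16 ± 0.41, adjusted p = 0.00215), the largest fall of the list, and was lowest of the list between the M1 groups (-2.98 ± 0.41, adjusted p = 0.00306). Cblb, a ubiquitin ligase gene, moved the other way, by 2.45 ± 0.15 in iNOS-/- stimulation (adjusted p = 0.000165) and 2.25 ± 0.15 between the M1 groups (adjusted p = 0.000335). It was the lowest of the list between the CON groups (-1.14 ± 0.15, adjusted p = 0.00412) and in WT stimulation (-0.93 ± 0.15, adjusted p = 0.00732). The adaptor genes Dok3 and Dok2 led the rises there, Dok3 between the CON groups (1.10 ± 0.08, adjusted p = 0.00059) and Dok2 in WT stimulation (1.03 ± 0.09, adjusted p = 0.00106). Ptpn11, which encodes the phosphatase SHP2 and was the brightest gene of the list, rose by 0.54 ± 0.09 in iNOS-/- stimulation (adjusted p = 0.0046).

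Of 8 tested genes that carry the IFN-γ signal to the nucleus, 5 rose and 0 fell in WT stimulation, with a median log2 difference of 0.86, where 20.1% of all probes rose and 14.9% fell. In iNOS-/- stimulation 6 rose and 1 fell, with a median of 1.42, where 26.4% of all probes rose and 23.6% fell. At an unadjusted limma p under 0.05, 1 gene fell in WT cells. Between the M1 groups 6 were higher and 1 lower in iNOS-/- cells (median 0.81, 48.5% of all probes called), and between the CON groups 2 were higher and 2 lower (median 0.14, 32.1% of all probes called). Irf1, a transcription factor gene and the brightest of the list, rose by 1.03 ± 0.11 in WT cells (adjusted p = 0.00193) and by 3.50 ± 0.11 in iNOS-/- cells (adjusted p = 2.93e-05), and was lower between the CON groups (-1.01 ± 0.11, adjusted p = 0.0021). Jak2, a receptor-associated kinase gene, led the list in WT stimulation (3.35 ± 0.12, adjusted p = 6.25e-05) and between the CON groups (2.76 ± 0.12, adjusted p = 0.000143). Ifngr1, the ligand-binding receptor chain, was the 1 gene lower in iNOS-/- than in WT M1 cells (-2.14 ± 0.11, adjusted p = 0.000223) and the 1 gene that fell in iNOS-/- stimulation (-2.13 ± 0.11, adjusted p = 0.000106).

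These lists were also read for the difference in response between genotypes. Of the activating list 4 genes responded more positively in iNOS-/- cells and 9 more negatively, of the inhibitory list 4 and 4, and of the interferon list 5 and 2, where 21% of all probes were called more positive and 21.1% more negative. The median differences in response were -0.30, 0.13 and 0.80 on the log2 scale, against 0.01 over all tested probes. The most positive were Lcp2 (2.05 ± 0.20, adjusted p = 0.0015), Cblb (3.38 ± 0.21, adjusted p = 0.000457) and Irf1 (2.47 ± 0.15, adjusted p = 0.000444). The most negative of the inhibitory and interferon lists were Dok2 (-3.26 ± 0.12, adjusted p = 0.000163) and Ifngr1 (-2.38 ± 0.16, adjusted p = 0.000525). Fyn was the most negative of the activating list, but no size is given, as it was undetected in WT CON.

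Among 4 other tested genes for Fc receptor-like or antibody-binding proteins, Fcrls and Trim21 were called. Fcrls, a receptor-like scavenger gene that the array lists as Msr2, had log2 means of 5.95 in WT CON, 8.77 in WT M1, 8.30 in iNOS-/- CON and 7.00 in iNOS-/- M1. It was higher in iNOS-/- than in WT CON cells (2.35 ± 0.09, adjusted p = 0.000109), rose in WT stimulation (2.82 ± 0.09, adjusted p = 5.17e-05), fell in iNOS-/- stimulation (-1.29 ± 0.09, adjusted p = 0.000256) and was lower between the M1 groups (-1.77 ± 0.09, adjusted p = 0.000214). These are the directions of Fcgr1 and Fcgrt. Trim21, an antibody receptor of the cytosol, rose in WT cells (1.15 ± 0.15, adjusted p = 0.00392) and in iNOS-/- cells (3.02 ± 0.15, adjusted p = 9.24e-05).

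Markers of the cells that the culture could hold were summed by group. All 8 macrophage markers were detected on every array, with a summed scaled intensity of 48683 to 48901.5 in WT CON, 56499.7 to 56811 in WT M1, 40382 to 41346 in iNOS-/- CON and 59757 to 62448.5 in iNOS-/- M1. The sum was lowest in iNOS-/- CON, and it was higher in WT M1 than in WT CON. Lyz and Lyz2, whose log2 means lay between 13.90 and 14.50, were the brightest of the list, and single markers ran otherwise, with Cd68 and Csf1r lowest in iNOS-/- M1 (log2 means of 10.36 and 10.23). Of 6 dendritic cell markers on the array, 3 or 4 were detected on both arrays of a group, and their sum was 202 to 246 in WT CON, 586 to 596 in WT M1, 490.0 to 515 in iNOS-/- CON and 2200.4 to 2392 in iNOS-/- M1. Ccr7, a chemokine receptor gene with a log2 mean of 10.97 there, made up most of the last sum. Cd209a, with log2 means of 5.02 in WT M1 and 5.34 in iNOS-/- CON, was undetected in iNOS-/- M1. It was there at least 4.08-fold lower than in WT M1 (adjusted p = 0.00138) and at least 5.09-fold lower than in iNOS-/- CON (adjusted p = 0.000921). For 7 neutrophil markers, the sum was 989 to 1005 in WT CON, 1383 to 1503 in WT M1, 1644 to 1739.9 in iNOS-/- CON and 4047 to 4172 in iNOS-/- M1, with 2 detected in WT CON and 5 in every other group. Flt3, a defining receptor of dendritic cell precursors, was detected on 0 arrays, and so was the granule enzyme gene Mpo. Zbtb46 and Itgax of the dendritic cell list were detected on all 8 arrays. Between the CON groups 3 of 4 tested dendritic cell markers and 5 of 6 neutrophil markers were higher in iNOS-/- cells, and 0 were lower. Of all probes, 16.1% were higher and 16.1% lower there. Zbtb46 was higher by 2.59 ± 0.24 there (log2, adjusted p = 0.00138). S100a9, undetected in WT CON, was at least 38.8-fold higher (adjusted p = 1.34e-05). WT stimulation raised 3 and 4 of these markers, in the same order, and lowered 0 (all probes, 20.1% and 14.9%). In iNOS-/- stimulation 2 dendritic cell markers rose and 1 fell, and 5 neutrophil markers rose and 0 fell (all probes, 26.4% and 23.6%). Between the M1 groups 2 dendritic cell markers were higher in iNOS-/- cells and 1 lower, and 3 neutrophil markers higher and 0 lower (24.5% and 23.9%). Of 4 NK cell markers on the array, whose cells use Fcgr3, only Prf1 was detected, and Ncr1 was detected on 0 arrays. The sum of these 4 was between 68.6 and 188. The part of these cells in the Fc receptor differences was not tested.

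Other probes ran close to each receptor over the 8 arrays, as a description over 4 groups that share their arrays. Closest to Fcgrt was Pbk, a kinase gene of dividing cells (Pearson r = 0.998), followed by D0H4S114 and Heatr1. Closest to Fcgr1 was the cell cycle inhibitor gene Cdkn2c (r = 0.992), followed by Fads2 and Tfdp1. Fcgr4 ran closest to Rrbp1 (r = 0.992), then Nupr1 and EG667977. The single probe of Fcgr2b ran closest to Tmem150 (r = 0.996), then Klk1b1 and Sepp1. Fcgr3 ran closest to LOC100047214 (r = 0.991), then Tbrg1 and Spg21, and Fcer1g to Anxa5 (r = 0.988), then Serinc1 and Rnf11. For Fcer1a, near background, the closest was Foxred1 (r = 0.953), then Hps3 and Ddi2. These were the highest among 12283 candidate probes, or 12281 for Fcgr2b.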

How the data were processed

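The authors deposited 1 table of the intensity of every probe, averaged over its beads, and, for each, a p-value of detection. Per the file headers it is not normalized. The header also names no background subtraction, although undetected probes lie around 0, so no background was subtracted again. The submitters' processing notes name GenomeStudio and limma 3.14.4. The labels name a MouseRef-8 and the methods a MouseWG-8 array. Arrays were scaled by robust regression without an intercept (MASS 7.3.60.0.1) on the mean of all arrays, over probes whose rank shifted by less than 0.05 of itself and lay between 0.5 and 0.9 of all probes. Values under 1 were set to 1 and log2 was taken. Probes detected (p under 0.05) on at least 2 arrays were fitted in limma 3.58.1 (R 4.3.3) with 1 mean per group. Adjusted p-values are Benjamini-Hochberg over 13868 probes. A gene undetected on both arrays of a group is given as at least N-fold, from the lowest detected signal there. The members and gene lists were chosen with earlier results of these data known. Of 99 listed genes, 93 were on the array. Genes named from a list are its largest called rise and fall per comparison and its brightest, with Syk, B2m and the other values of a named gene added after their values were seen. Some genes that this rule names are not reported here. The procedure was tested on simulated data. The number of arrays limits the precision. The alternatives were neqc, quantile normalization, a line with an intercept, a floor of 16, no detection filter, detection on all 8 arrays, a fit to the 4 arrays compared, a replicate block, an intensity trend, and each array left out in turn. Promoters came from RefSeq (GRCm38.p6), and all 7 genes had one.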

Additional observations from a re-analysis of the deposited data

Results flagged for a closer look

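The response to stimulation differed between genotypes (limma interaction, adjusted p under 0.05) for 5 of 9 Fc receptor probes, where 42.1% of all tested probes were called. In the fit to probes detected on all 8 arrays, 5 member probes and 59.8% of all probes were called, so the count alone does not set the members apart. On the log2 scale the response in iNOS-/- cells minus that in WT cells was 4.16 for Fcgr4, which fell in WT and rose in iNOS-/- cells, and -2.79 for Fcgrt and -1.51 for Fcgr1, which did the reverse. It was -1.59 for the Fcgr2b isoform probe, which rose in WT cells and was not called in iNOS-/- cells. It was 0.83 for Fcer1g, whose difference was 0.27 and not called after neqc or quantile normalization.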

How the results depend on the processing

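No count of called members left its range of 1.5 times under an alternative that kept all 8 arrays or fitted 4 of them. With each array left out in turn, the counts ran from 4 to 8 between the M1 groups and between the CON groups, from 3 to 6 in WT stimulation, from 4 to 5 in iNOS-/- stimulation, and stayed at 5 for the difference in response. The count between the CON groups fell to 5 without WT CON replicate 1 and to 4 without WT CON replicate 2 or either iNOS-/- CON array, where the share of all probes called fell from 32.1% to between 20.5% and 21.1%. In WT stimulation it fell to 3 without either WT CON array or WT M1 replicate 2, where the share fell from 35.1% to between 23.2% and 23.8%. Of the log2 differences, 689 of 771 alternatives kept their direction and their side of the threshold, 46 lost the call, 17 gained one and 19 turned in sign. For Fcer1g the sign turned after neqc and quantile normalization between the M1 groups (both -0.11) and in iNOS-/- stimulation (-0.0272 after either). The difference in response of the Fcgr2b single probe, 0.26 and not called, was -0.27 after neqc and -0.28 after quantile normalization. The uncalled difference of the Fcgr2b isoform probe to its other probes turned to 0.21 after neqc and 0.10 after quantile normalization between the M1 groups, and to 0.18 and 0.0798 in iNOS-/- stimulation. Fcer1a, never called with all arrays, turned with the intercept line to 0.40 between the M1 groups, 0.41 in iNOS-/- stimulation and 1.03 for the difference in response. With an array left out it ran from -2.84 to 0.12 between the M1 groups, from -0.86 to 0.15 between the CON groups, from -0.81 to 0.64 in WT stimulation, from -2.57 to 0.39 in iNOS-/- stimulation and from -2.49 to 0.47 for the difference in response. The intercept line moved the median of all probes to 0.24, 0.20 and 0.33 in the comparison of M1 groups, iNOS-/- stimulation and the difference in response, so those Fcer1a values are to be read against these shifts. The replicate numbers did not pair the samples: correlations of deviations between groups were between -0.04 and 0.02, and the counts with a replicate block were 6, 8, 6, 5 and 5, as without it, so it changed no count. Where 1 array remained in a group, its spread was taken from the rest. The cause of these changes was not tested. Brightness near background limits Fcer1a and the Fcgr2b isoform probe.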
